A study of Sorghum bicolor with 177 samples.

Results

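Roots of hydroponic sorghum (Sorghum bicolor, the genotype BTx623 from which the reference genome was made) were taken 2 d and 4 d after the plants were moved into a solution with excess zinc. Each zinc excess mean was set against the control mean of the same day as a difference of log2(mean TPM + 1), where TPM is a transcript level scaled to gene length and to a fixed total per library. Genes were kept where at least 1 of these 4 means reached 5 TPM, which left 16519 of the 34129 genes. The comparison covers 11 of the 177 libraries of the series, with 2 listed for zinc excess at 2 d and 3 each for zinc excess at 4 d, control at 2 d and control at 4 d. All plants had grown for 3 weeks in control solution, with 1 µM ZnSO4 and 50 µM NaFe(III)EDTA as the iron source. The zinc excess solution held 100 µM ZnSO4 with the same iron, and the control plants were moved into solution of the control composition. The other solutions, used here as further baselines, were zinc limitation with 0 µM ZnSO4, iron limitation with 0 µM NaFe(III)EDTA and iron excess with 1 mM NaFe(III)EDTA. Roots sampled before the move, the 0 h root, gave the third baseline from 6 libraries. The deposited table holds 1 mean per tissue, time and solution, so no spread between plants can be given. The decimals of the zinc excess mean at 2 d are those of a mean over 3 libraries, although 2 are listed in the labels used here. The same 3 plant numbers appear in the labels for zinc excess at 2 d and for zinc excess roots at 7 d, whereas no plant of the 4 d zinc excess root appears at another time.

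Zinc is a cofactor of many enzymes and of zinc finger proteins, and in excess it competes with iron and other metals for carriers and binding sites. Roots take zinc up through ZIP transporters, bind it with nicotianamine, metallothioneins and phytochelatins, move it into vacuoles through cation efflux and zinc induced facilitator carriers, and load it into the xylem with heavy metal ATPases. Grasses also build phytosiderophores from nicotianamine and release them to acquire iron. Reactive compounds are handled by a general detoxification route of cytochromes P450, glutathione S-transferases and UDP-glycosyltransferases, followed by ABC and MATE carriers that export the products or store them. A symbol ending in "-like" is that of the best Arabidopsis match in the deposited annotation, and the roles given are those known from Arabidopsis or other plants.

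The root columns carried little green tissue: the 50 genes of the green leaf marker list summed to 590 TPM in the 0 h root and 321089 TPM in the 0 h leaf. That sum was 632 TPM in zinc excess and 1932 TPM in the control at 2 d, and 890 TPM and 1614 TPM at 4 d. Root hair markers summed to 442 TPM in zinc excess and 452 TPM in the control at 2 d, and to 538 TPM and 418 TPM at 4 d. Endodermis markers summed to 1488 TPM against 863 TPM at 2 d and 1498 TPM against 1171 TPM at 4 d. Xylem markers summed to 1236 TPM against 1113 TPM at 2 d and 1527 TPM against 1363 TPM at 4 d. In these whole roots, fewer cells of a type and less RNA per cell cannot be told apart.

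At 2 d, 3466 genes were at least 2-fold higher in zinc excess than in the control and 1997 at least 2-fold lower, which is 21.0% and 12.1% of the genes. At 4 d the counts were 1838 higher and 854 lower, 11.1% and 5.17%. Both days gave the same direction for 1289 genes higher (7.80%) and 650 genes lower (3.93%), and 39 genes (0.236%) were 2-fold one way at 2 d and the other way at 4 d. With 1 mean per column these counts have no test, and they depended on the control: against the 0 h root, zinc excess was 2-fold higher for 1018 genes (6.16%) and lower for 785 (4.75%) at 2 d, and higher for 2163 (13.1%) and lower for 1452 (8.79%) at 4 d.

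The control roots themselves stood far from the 0 h root. At 2 d, 2414 genes were 2-fold higher and 4080 lower in the control than at 0 h, 6494 in all (39.3%), whereas zinc excess differed from 0 h for 1803 genes. At 4 d the control differed for 6081 genes (36.8%) and zinc excess for 3615. Iron limitation at 2 d differed from 0 h for 6441 genes, nearly as many as the control of that day, while iron excess at 2 d differed for 2010 and zinc limitation for 3328. The 0 h level and the other treatments are therefore given beside the control for the genes below.

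**Figure D1:**
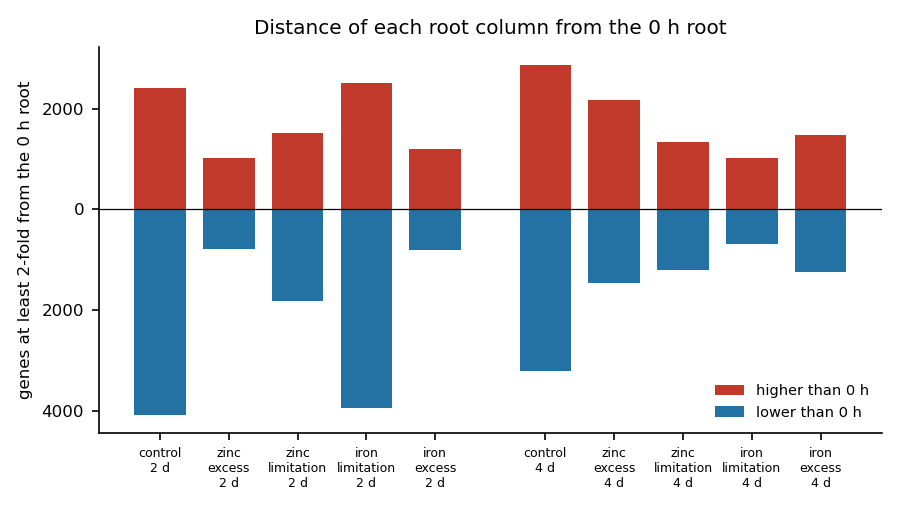
Number of genes (of 16519) at least 2-fold above (red, upward) or below (blue, downward) the 0 h root in each root column at 2 d and 4 d, on log2(mean TPM + 1). The control bars at both days and the iron limitation bar at 2 d are the long ones, with 6494, 6081 and 6441 genes, against 1803 and 3615 for zinc excess.

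Requiring the same direction and at least 2-fold from the mean of the other 3 treatments as well, at both days, left 250 genes higher (1.51%) and 70 lower (0.424%). Of these, 149 higher (0.902%) and 9 lower genes (0.0545%) were also 2-fold away from the 0 h root at both days. Among the 250 higher genes, 188 had the larger difference at 2 d, and 50 of the 70 lower genes did. Differences from the control were larger at 2 d for genes in general. Of all genes, 3466 were 2-fold higher and 1997 lower at 2 d, against 1838 and 854 at 4 d.

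**Figure D2:**
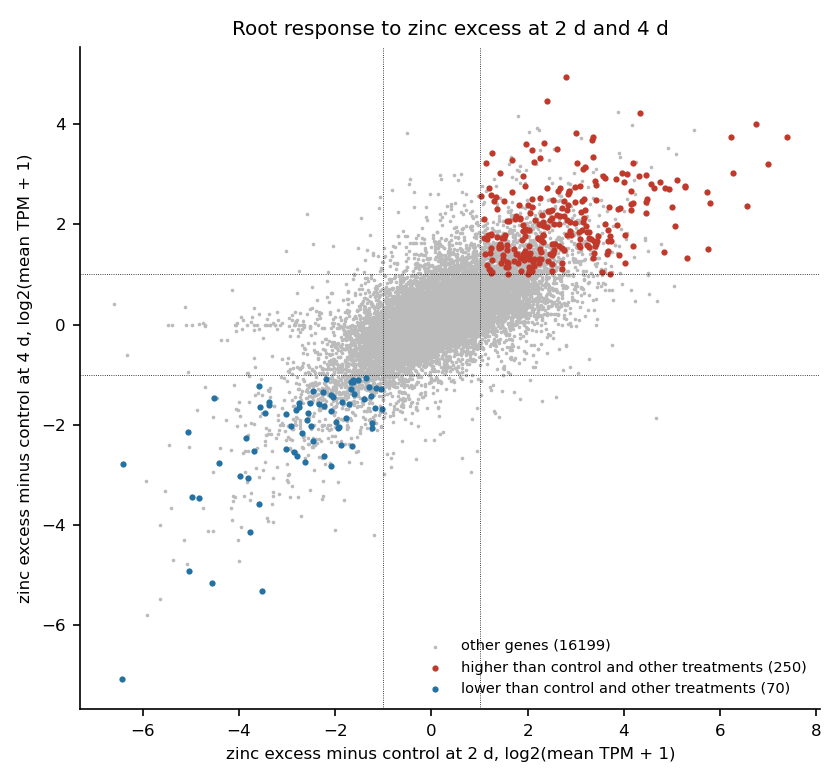
Difference between zinc excess and control at 2 d (horizontal) and at 4 d (vertical) for 16519 genes, on log2(mean TPM + 1), with dotted lines at 2-fold. Red points are the 250 genes and blue points the 70 genes that were also at least 2-fold from the mean of the other 3 treatments at both days, and the red points reach further right than up.

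A test was possible only by letting the sampling times stand as replicates. limma was fitted to 25 root columns (5 solutions at 2 d, 4 d, 7 d, 14 d and 21 d, 20500 genes with a mean of at least 1 TPM), with an effect of each solution in the early days (2 d and 4 d) and in the later ones. Against the control, 2105 genes rose (10.3%) and 646 fell (3.15%) in early zinc excess at an adjusted p under 0.05. Against the other 3 treatments, a contrast that uses no control column, 201 genes rose (0.980%) and 29 fell (0.141%), and 189 and 16 genes (0.922% and 0.0780%) were called in both contrasts in the same direction. The effect of zinc excess in the later days minus that in the early ones was higher for 12 genes (0.0585%) and lower for 228 (1.11%). Rescaling each column to a median log ratio of 0, which moved the median difference from the control by -0.18 at 2 d and -0.19 at 4 d, changed the first split to 1746 higher and 1880 lower. The 2 d columns carried most calls: without them 32 genes rose and 11 fell against the control, and 2 and 2 against the other treatments. Of the 47 genes named by rule that were called against the other treatments, none passed without 2 d, with adjusted p from 0.0829 to 0.67, and 30 passed without 4 d, while all 47 kept their direction in both. Of the 173 named genes called against the control, 10 passed without 2 d and 131 without 4 d, and all 173 kept their direction. Those described below that passed against the control without 2 d were Sobic.004G073600, Sobic.002G314300, Sobic.001G198000, Sobic.001G059700, Sobic.002G050400, Sobic.002G365550, Sobic.010G115700, Sobic.001G351400 and Sobic.003G055300. Calls that were also lost without 4 d are given beside the gene.

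Detoxification enzymes held the largest rises that set zinc excess apart from every other column. The tau class glutathione S-transferase GSTU25-like Sobic.002G361100 stood at 451 TPM in zinc excess and 2.55 TPM in the control at 2 d, and at 78.4 TPM and 7.59 TPM at 4 d. Its level was 4.25 TPM in the 0 h root and between 1.17 TPM and 12.0 TPM in the other 3 treatments. No other column at these days came near either zinc excess value, and the early effect was 5.10 ± 1.04 (SE) on the log2 scale against the control (adjusted p = 0.00869) and 5.54 ± 0.85 against the other treatments (adjusted p = 0.00418).

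The lambda class enzyme GSTL2-like Sobic.001G412700 had 219 TPM in zinc excess and 1.86 TPM in the control at 2 d, 47.2 TPM and 4.90 TPM at 4 d. It had 2.02 TPM at 0 h. It rose by 4.65 ± 0.71 against the control (adjusted p = 0.00339) and by 5.46 ± 0.58 against the other treatments (adjusted p = 0.000791). GSTU8-like Sobic.003G426000 had 274 TPM against 6.15 TPM at 2 d and 54.2 TPM against 7.12 TPM at 4 d, with 13.2 TPM at 0 h. Both zinc excess values again lay above all other early columns. The phi class enzyme GSTF13-like Sobic.003G164800 had 530 TPM against 9.02 TPM at 2 d and 142 TPM against 21.8 TPM at 4 d, with 12.9 TPM at 0 h, and it rose against the other treatments by 4.48 ± 0.60 (adjusted p = 0.00189). A neighbour of the GSTU8-like gene, Sobic.003G425850, was at 29.8 TPM and 6.46 TPM in zinc excess and was listed at 0 and at 0.151 TPM in the controls, and reads may be shared between such tandem copies.

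Of 66 glutathione S-transferase genes above 5 TPM, 39 were 2-fold higher and 1 lower at 2 d, 27 higher and 2 lower at 4 d, and 24 higher and 0 lower at both, a share of 36.4% against 7.80% of all genes. The early fit called 27 of them higher and 1 lower against the control, where 10.3% and 3.15% of all genes were. Against the other treatments it called 16 higher and 0 lower, where 0.980% of all genes were called higher. Their median difference was 1.32 at 2 d and 0.65 at 4 d from the control, where the median of all genes was 0.10 and 0.17, and it was 0.85 and 0.72 from the 0 h root. The member that the fit called lower was the theta class GSTT3-like Sobic.005G160300, with 3.47 TPM against 14.8 TPM at 2 d and 3.64 TPM against 5.51 TPM at 4 d (adjusted p = 0.0286). The tau class GSTU18-like Sobic.001G318600, with 2.65 TPM against 6.08 TPM at 2 d and 2.29 TPM against 10.2 TPM at 4 d, missed the test (adjusted p = 0.125).

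Oxidising and reducing enzymes behaved in the same way. CYP81D5-like Sobic.001G082400, a cytochrome P450 of a family that hydroxylates secondary metabolites, had 186 TPM in zinc excess and 1.49 TPM in the control at 2 d, 65.3 TPM and 3.98 TPM at 4 d. It had 2.22 TPM at 0 h. The 2-oxoglutarate dioxygenase Sobic.001G166401 had 116 TPM against 0.087 TPM at 2 d and 26.3 TPM against 0.700 TPM at 4 d, with 2.72 TPM at 0 h. OPR2-like Sobic.010G084700, an oxophytodienoate reductase that acts on reactive enones, had 199 TPM against 0.197 TPM at 2 d and 58 TPM against 3.39 TPM at 4 d, with 1.67 TPM at 0 h. In all 3 genes the highest of the other treatments was under 5 TPM.

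Their early effects against the control were 4.98 ± 0.76 for Sobic.001G082400, 5.38 ± 0.73 for Sobic.001G166401 and 5.57 ± 1.40 for Sobic.010G084700. Against the other treatments they were 4.89, 4.72 and 5.76, with adjusted p of 0.0012, 0.0012 and 0.0217, the last of which was 0.0739 without 4 d. FQR1-like Sobic.002G074400, a quinone reductase, had 109 TPM against 0.172 TPM at 2 d and 19.5 TPM against 2.97 TPM at 4 d, with 0.748 TPM at 0 h, and it also rose in both contrasts. The next gene on the chromosome, OPR2-like Sobic.010G084600, had 45.7 TPM against 0.206 TPM at 2 d and 17.5 TPM against 1.74 TPM at 4 d, and its calls were lost without 4 d (0.054 and 0.0842). Of the 110 P450 genes above 5 TPM, 39 were 2-fold higher and 10 lower at both days (35.5% and 9.09%, against 7.80% and 3.93% of all genes). In the early fit against the control 33 rose and 6 fell, where 10.3% and 3.15% of all genes did. Against the other treatments 8 of the P450 genes rose and 0 fell, where 0.980% and 0.141% of all genes did.

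**Figure D3:**
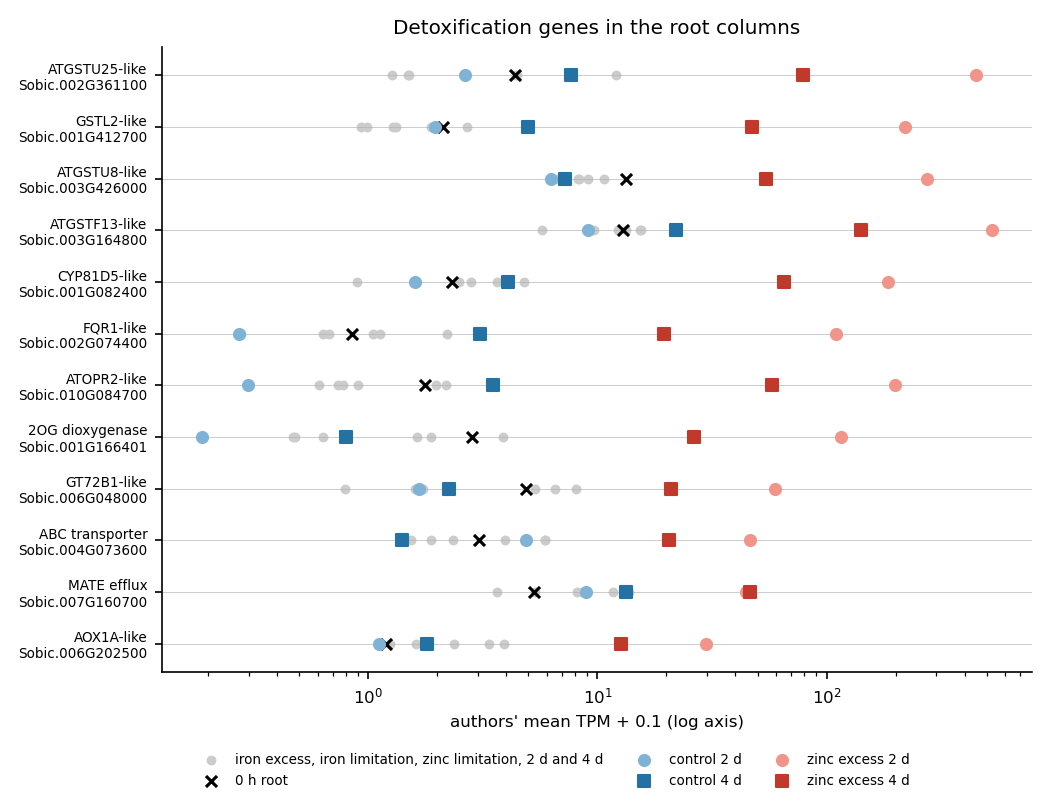
Mean TPM + 0.1 (log axis) of 12 detoxification genes in zinc excess (red), control (blue), the 0 h root (cross) and the other 3 treatments at 2 d and 4 d (grey). In each gene both zinc excess points lie to the right of every other point, and in all but the MATE carrier the 2 d point lies well to the right of the 4 d point.

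Conjugating and exporting steps were also among the genes that set zinc excess apart. UGT72B1-like Sobic.006G048000, a glycosyltransferase of the group that glucosylates phenols and xenobiotics, had 59.7 TPM against 1.57 TPM at 2 d and 20.9 TPM against 2.15 TPM at 4 d, with 4.78 TPM at 0 h. The ABC transporter Sobic.004G073600 had 46 TPM against 4.76 TPM at 2 d and 20.5 TPM against 1.30 TPM at 4 d, with 2.94 TPM at 0 h. The MATE carrier Sobic.007G160700 had 44.2 TPM against 8.78 TPM at 2 d and 46.3 TPM against 13.2 TPM at 4 d, with 5.19 TPM at 0 h. All 3 rose against the other treatments, by 3.16 (adjusted p = 0.0073), 2.94 (adjusted p = 0.00279) and 2.41 (adjusted p = 0.00331).

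By family, 20 of 75 UDP-glycosyltransferase genes above 5 TPM were 2-fold higher and 4 lower at both days, 7 of 39 ABC transporter genes were higher and 0 lower, and 8 of 26 MATE genes were higher and 0 lower. The higher shares were 26.7%, 17.9% and 30.8%, against 7.80% of all genes. On rescaled columns the ABC count was 4, where 904 of all 16519 genes were higher at both days. The early fit against the other treatments called 10 glycosyltransferases, 3 ABC transporters and 3 MATE carriers higher and none of these families lower. Of all genes, 0.980% were called higher in that contrast. AOX1A-like Sobic.006G202500, the alternative oxidase of the mitochondrial chain, rose too, with 29.6 TPM against 1.01 TPM at 2 d, 12.5 TPM against 1.70 TPM at 4 d and 1.09 TPM at 0 h (adjusted p = 0.00446 against the control and 0.00527 against the other treatments). A second AOX1A-like gene, Sobic.004G270500, missed the test at 5.27 TPM against 0.536 TPM and 1.84 TPM against 1.07 TPM, and it had been at 8.57 TPM at 0 h. Among 14 genes of the ascorbate peroxidase, catalase and superoxide dismutase list, 1 was 2-fold higher and 1 lower at both days (7.14% each, against 7.80% and 3.93% of all genes). In the early fit against the control 4 of these 14 rose and 0 fell, where 10.3% and 3.15% of all genes did. limma called 0 against the other treatments, where 3 were higher at an unadjusted p under 0.05.

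Zinc carriers moved in both directions. ZIFL2-like Sobic.008G084800, a zinc induced facilitator of the kind that moves zinc or its chelators across membranes, stood at 703 TPM in zinc excess and 33.7 TPM in the control at 2 d, and at 364 TPM and 18.6 TPM at 4 d. It was at 92.4 TPM at 0 h, and the other treatments ranged from 5.58 TPM in iron excess at 4 d to 134 TPM in iron limitation at 4 d. Zinc excess was thus the highest column at both days, with an early effect of 4.28 ± 0.99 against the control (adjusted p = 0.0146) and 3.50 ± 0.81 against the other treatments (adjusted p = 0.0472). The adjusted p against the control was 0.225 without 2 d and 0.0547 without 4 d, and that against the other treatments 0.559 and 0.101.

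Its relatives ZIFL1-like Sobic.005G024800 and Sobic.005G024700 lie next to each other in the gene order and differed in sign. Sobic.005G024800 had 12.1 TPM against 1.44 TPM at 2 d and 11.7 TPM against 4.26 TPM at 4 d, with 2.75 TPM at 0 h. It rose in both contrasts (adjusted p = 0.00787 and 0.00489). Sobic.005G024700 had 1.37 TPM against 8.18 TPM at 2 d and 2.75 TPM against 10.2 TPM at 4 d, and fell against the control (adjusted p = 0.0194), but it had been at 1.64 TPM at 0 h and showed no call against the other treatments (adjusted p = 0.706). The third copy, Sobic.005G024900, had 11.3 TPM against 12.9 TPM and 18.2 TPM against 14.4 TPM.

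Heavy metal pumps gave few calls. HMA5-like Sobic.004G079900, of a group known for copper export, had 275 TPM against 97.1 TPM at 2 d and 167 TPM against 41.6 TPM at 4 d, and missed the test (adjusted p = 0.0598). HMA2-like Sobic.010G250900, of the group that loads zinc into the xylem, had 170 TPM against 186 TPM at 2 d and 196 TPM against 241 TPM at 4 d. The cation efflux genes MTPA1-like Sobic.009G029500 and MTP11-like Sobic.003G349200, of the family that fills vacuoles and other compartments with metals, had 16.8 TPM against 8.86 TPM and 17.8 TPM against 20.0 TPM at 2 d, and neither was called. In the whole list of 17 efflux and storage genes, 4 were 2-fold higher and 1 lower at both days (23.5% and 5.88%, against 7.80% and 3.93% of all genes). In the early fit against the control 2 rose and 2 fell, where 10.3% and 3.15% of all genes did. The second fall was the copper pump HMA8-like Sobic.001G484400 (adjusted p = 0.0404).

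ZIP transporters, which bring zinc into the cell, split by gene. ZIP5-like Sobic.007G064900 had 1.01 TPM in zinc excess and 24.9 TPM in the control at 2 d, and 3.37 TPM and 24.3 TPM at 4 d, with 13.6 TPM at 0 h. Zinc limitation gave the opposite extreme, 131 TPM at 2 d and 112 TPM at 4 d, and iron limitation and iron excess lay between 21.0 TPM and 36.3 TPM. Zinc excess was the lowest column at both days, with an effect of -3.11 ± 1.08 against the control that missed the threshold (adjusted p = 0.0642) and of -4.02 ± 0.88 against the other treatments that passed it (adjusted p = 0.039). ZIP4-like Sobic.009G073100 had the same order, with 10.0 TPM against 44.3 TPM at 2 d and 17.2 TPM against 48.4 TPM at 4 d, and 94.3 TPM and 84.9 TPM in zinc limitation (adjusted p = 0.0537 against the control and 0.0474 against the other treatments). Both calls were lost without 2 d (0.561 and 0.627) and without 4 d (0.143 and 0.11).

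The mean of the other treatments includes zinc limitation, where both genes stood highest. ZTP29-like Sobic.004G079700, from a ZIP branch described for internal membranes, went the other way with 124 TPM against 19.8 TPM at 2 d and 71.8 TPM against 21.7 TPM at 4 d. It had 43.6 TPM at 0 h. It rose in both contrasts (adjusted p = 0.00325 and 0.0104). ZIP10-like Sobic.001G156800 had 132 TPM against 21.3 TPM at 2 d and 81.7 TPM against 26.2 TPM at 4 d. It rose against the control (adjusted p = 0.0355), while the other ZIP10-like gene, Sobic.001G142900, had 179 TPM against 300.0 TPM and 229 TPM against 420 TPM and missed the test. Further members rose against the control alone, ZIP11-like Sobic.001G339600 (adjusted p = 0.047) and IAR1-like Sobic.007G153500 (adjusted p = 0.0319), and both calls were lost without 4 d (0.0675 and 0.0716). The list of 14 ZIP genes above 5 TPM held 2 genes higher and 2 lower at both days (14.3% each, against 7.80% and 3.93% of all genes). Of its entries, the VPS41-like Sobic.006G264000 and the clathrin adaptor Sobic.004G017300 are in it only through a shared Arabidopsis symbol.

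**Figure D4:**
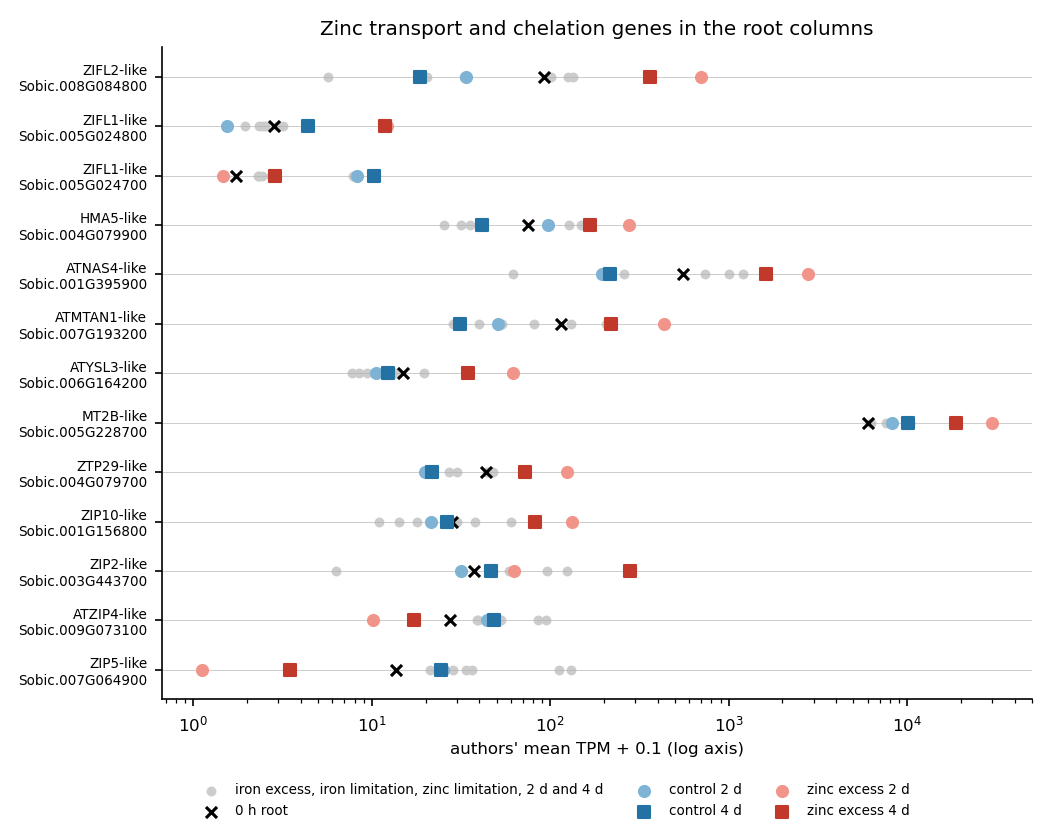
Mean TPM + 0.1 (log axis) of 13 zinc transport and chelation genes in zinc excess (red), control (blue), the 0 h root (cross) and the other 3 treatments at 2 d and 4 d (grey). The ZIFL2-like, NAS4-like and MT2B-like genes have both red points at the right end, and the ZIP4-like and ZIP5-like genes have both at the left end.

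Single chelator genes were higher in zinc excess. NAS4-like Sobic.001G395900, the nicotianamine synthase, stood at 2771 TPM in zinc excess and 194 TPM in the control at 2 d, and at 1607 TPM and 215 TPM at 4 d. It was at 557 TPM at 0 h, at 202 TPM and 61.9 TPM in iron excess, and at 1009 TPM and 1205 TPM in iron limitation and zinc limitation at 4 d. Zinc excess was the highest early column, with an effect of 3.36 ± 1.02 against the control (adjusted p = 0.0405) and no call against the other treatments (adjusted p = 0.218). Leaving out either day ended the call against the control, at 0.462 without 2 d and 0.0977 without 4 d.

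The metallothionein MT2B-like Sobic.005G228700, a small cysteine rich metal binding protein, was among the most abundant transcripts, with 30032 TPM against 8266 TPM at 2 d, 18753 TPM against 10126 TPM at 4 d and 6034 TPM at 0 h. The other treatments lay between 6263 TPM and 10423 TPM, below both zinc excess values, and the gene rose by 1.38 ± 0.41 against the control (adjusted p = 0.0359) and by 1.41 ± 0.33 against the other treatments (adjusted p = 0.0496). Without 2 d both calls were lost (0.576 and 0.57), and without 4 d the second was (0.0953). The metallothionein Sobic.003G071901, with 28 TPM against 5.07 TPM and 25.2 TPM against 12.0 TPM, missed the test (adjusted p = 0.11). The phytochelatin synthase PCS1-like Sobic.003G024200 did not differ by 2-fold, with 11.9 TPM against 11 TPM and 18.1 TPM against 15.5 TPM. Nicotianamine is made from S-adenosylmethionine, and of 4 genes that supply it or recycle its by-product 2 were 2-fold higher at both days and called against the control, against 7.80% and 10.3% of all genes. The methylthioadenosine nucleosidase MTN1-like Sobic.007G193200 had 436 TPM against 50.6 TPM at 2 d and 218 TPM against 31.1 TPM at 4 d, with 115 TPM at 0 h. It rose in both contrasts (adjusted p = 0.00874 and 0.0494). The S-adenosylmethionine synthetase Sobic.003G151600 had 5155 TPM against 1427 TPM at 2 d and 3244 TPM against 1273 TPM at 4 d. It rose against the control (adjusted p = 0.0209).

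Carriers of metal and nicotianamine complexes followed. YSL3-like Sobic.006G164200 had 61.9 TPM against 10.4 TPM at 2 d and 34.4 TPM against 12.3 TPM at 4 d, with 15 TPM at 0 h. It rose in both contrasts (adjusted p = 0.00703 and 0.00489). YSL3-like Sobic.004G299500 had 357 TPM against 83.3 TPM at 2 d and 325 TPM against 63.6 TPM at 4 d. It rose against the control alone (adjusted p = 0.0243 and 0.0905). The copper carrier COPT5-like Sobic.001G353200 had 708 TPM against 151 TPM at 2 d and 362 TPM against 123 TPM at 4 d. It was called in both contrasts (adjusted p = 0.0173 and 0.0396). In the list of 16 YSL and OPT carriers, 4 rose and 0 fell in the early fit against the control, and in that of 14 copper genes 5 rose and 1 fell, the HMA8-like pump. Of all genes, 10.3% rose and 3.15% fell in this fit.

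Regulators of iron uptake were partly higher. FIT-like Sobic.006G047200, the factor that switches on iron uptake in Arabidopsis, had 339 TPM in zinc excess and 82.9 TPM in the control at 2 d, 248 TPM and 96.0 TPM at 4 d, and 70.5 TPM at 0 h (adjusted p = 0.0267 against the control and 0.0635 against the other treatments). bHLH38-like Sobic.003G428800, which pairs with it, had 594 TPM against 161 TPM at 2 d and 615 TPM against 288 TPM at 4 d (adjusted p = 0.0367, and 0.0533 without 4 d). PYE-like Sobic.005G177800, a factor known as a repressor of iron homeostasis genes, fell, with 1.85 TPM against 35.8 TPM at 2 d and 6.25 TPM against 40.4 TPM at 4 d (adjusted p = 0.00805), but it had been at 8.24 TPM at 0 h.

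For Sobic.005G177800 the fall was therefore against controls that had themselves moved away from the 0 h level. A second PYE-like gene, Sobic.001G355600, had 207 TPM against 194 TPM at 2 d and 127 TPM against 94.1 TPM at 4 d, with 30.0 TPM at 0 h. The ferritin FER4-like Sobic.008G004800, the iron store, fell against the control with 1.90 TPM against 19.1 TPM at 2 d and 5.73 TPM against 12.9 TPM at 4 d, and 20.5 TPM at 0 h (adjusted p = 0.0152). BTS-like Sobic.009G222200, an iron-sensing ubiquitin ligase, had 71.1 TPM against 25.3 TPM and 62.7 TPM against 26.3 TPM and missed the test (adjusted p = 0.0854). Of 12 iron regulators above 5 TPM, 3 were 2-fold higher and 1 lower at both days (25% and 8.33%, against 7.80% and 3.93% of all genes). limma called 0 of them against the other treatments, where 4 were higher and 2 lower at an unadjusted p under 0.05.

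Sulfate assimilation, which provides the sulfur of glutathione, stood higher in zinc excess. APS3-like Sobic.001G094300, an ATP sulfurylase by its symbol although the annotation describes it as a pseudouridine synthase, had 1514 TPM in zinc excess and 144 TPM in the control at 2 d, 1016 TPM and 139 TPM at 4 d. It had 279 TPM at 0 h. Iron limitation and zinc limitation reached 484 TPM and 500 TPM at 4 d, and zinc excess was the highest early column (adjusted p = 0.00463 against the control and 0.0104 against the other treatments). APR3-like Sobic.002G314300, the next enzyme of the route, had 52.8 TPM against 3.70 TPM at 2 d and 39.9 TPM against 6.33 TPM at 4 d, but 29 TPM at 0 h and 81.4 TPM in iron excess at 4 d. It was called against the control alone (adjusted p = 0.00485 and 0.432).

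The sulfate transporter SULTR2;1-like Sobic.001G470800 had 30.2 TPM against 4.47 TPM at 2 d and 15.5 TPM against 4.36 TPM at 4 d, with 13 TPM at 0 h. It rose in both contrasts (adjusted p = 0.0139 and 0.0415). LSU4-like Sobic.001G198000, a marker of low sulfur, had 168 TPM against 8.44 TPM at 2 d and 177 TPM against 10.2 TPM at 4 d. It was at 42.7 TPM at 0 h and at 263 TPM in iron excess at 4 d. It rose against the control alone (adjusted p = 0.00835 and 0.264). Of 26 genes of the sulfate and glutathione list, which also takes in some unrelated genes through shared symbols, 10 were 2-fold higher and 0 lower at both days (38.5% higher, against 7.80% of all genes). On rescaled columns 6 were higher, where 904 of all 16519 genes were. Of these 26, 8 rose and 0 fell in the early fit against the control, where 10.3% of all genes rose. Against the other treatments 4 rose and 0 fell, where 0.980% of all genes rose. The median difference of the list from the control was 0.65 at 2 d and 0.94 at 4 d.

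Of the hormone lists, which were matched by symbol or description and do not measure hormone synthesis, that of jasmonate held the most calls. LOX1-like Sobic.003G385900, a lipoxygenase, had 183 TPM against 14.5 TPM at 2 d and 181 TPM against 22.3 TPM at 4 d, with 153 TPM at 0 h (adjusted p = 0.00314 and 0.0362, the latter 0.165 without 4 d). NCED9-like Sobic.001G155300, of the family that makes the abscisic acid precursor, had 20.6 TPM against 1.01 TPM at 2 d and 6.89 TPM against 1.59 TPM at 4 d, with 1.11 TPM at 0 h (adjusted p = 0.00556 and 0.00269). IAA26-like Sobic.004G099600, an auxin response repressor, had 51.8 TPM against 1.39 TPM at 2 d and 14.9 TPM against 1.02 TPM at 4 d (adjusted p = 0.00544 and 0.0187).

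The 38 genes of the jasmonate list, which counts the OPR1-like and OPR2-like reductases, held 10 genes higher and 1 lower at both days (26.3% and 2.63%, against 7.80% and 3.93% of all genes). On rescaled columns 8 were higher and 3 lower, where 904 and 920 of all 16519 genes were. Against the control 10 rose and 1 fell in the early fit, where 10.3% and 3.15% of all genes did. The fall was the lipoxygenase LOX5-like Sobic.001G125800, with 241 TPM against 1436 TPM at 2 d and 520 TPM against 1523 TPM at 4 d (adjusted p = 0.0154). Against the other treatments 6 rose and 0 fell, where 0.980% of all genes rose. Its median difference, 0.26 at 2 d and 0.21 at 4 d, stood beside 0.10 and 0.17 for all genes, and the JAZ10-like repressor Sobic.003G410300 had 0.0637 TPM against 14.2 TPM at 2 d and 5.42 TPM against 11.5 TPM at 4 d without a call. Lists for auxin, ethylene and abscisic acid held 4 of 56, 2 of 32 and 6 of 33 genes higher at both days, 7.14%, 6.25% and 18.2% against 7.80% of all genes, and 2, 0 and 0 lower. On rescaled columns auxin turned to 3 higher and 4 lower.

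Other genes far above the control had levels in zinc excess close to or below those of the 0 h root, or less than 2-fold above them. The germin-like protein GLP5-like Sobic.003G427700, a cell wall protein, had 58 TPM against 0.346 TPM at 2 d and 40.9 TPM against 1.86 TPM at 4 d, and had been at 46.2 TPM at 0 h. The lipid transfer protein Sobic.001G059700 had 47.4 TPM against 2.27 TPM at 2 d and 69.4 TPM against 2.74 TPM at 4 d. It had 112 TPM at 0 h. The proline-rich cell wall protein Sobic.002G365550 had 151 TPM against 13.7 TPM at 2 d and 268 TPM against 19.1 TPM at 4 d. It had 183 TPM at 0 h. In each of the 3 genes both controls were far below the 0 h level, and iron limitation at 2 d was as low or nearly so, at 0.332 TPM, 1.66 TPM and 22.4 TPM. For Sobic.001G059700 zinc excess at 2 d was also below 0 h, by -1.22 on the log2 scale.

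Expansins loosen walls of growing cells. Among the gene lists with more than 20 genes, the cell marker lists left aside, they had the largest median difference, 1.99 at 2 d and 0.97 at 4 d. Of 40 expansin genes 17 were 2-fold higher and 1 lower at both days (42.5% and 2.5%, against 7.80% and 3.93% of all genes). Against the 0 h root their median was -0.54 and -0.96, and limma called 0 against the other treatments, where 4 were higher and 1 lower at an unadjusted p under 0.05. AT-EXP1-like Sobic.003G338801 had 70.2 TPM against 3.41 TPM at 2 d, 54.3 TPM against 10.6 TPM at 4 d and 68.4 TPM at 0 h. Class III peroxidases, which cross-link walls, had medians of 1.08 and 0.80 against the control and of -0.76 and -0.66 against the 0 h root, with 29 of 89 genes higher and 5 lower at both days (32.6% and 5.62%). Against the control, xylem markers were higher too, with medians of 1.31 and 1.05. Of these 28 markers 13 were higher and 2 lower at both days (46.4% and 7.14%, against 7.80% and 3.93% of all genes). Against the 0 h root their medians were 0.13 and 0.21, above 0 unlike those of the wall genes. The part of the xylem markers in the result was not tested. Against the other treatments limma called 2 of the 89 peroxidases higher and 1 lower, beside 0.980% and 0.141% of all genes. Before adjustment its p was below 0.05 for 7 higher and 7 lower peroxidases, an even split. Peroxidase Sobic.010G115700 was one of the 2 called higher (adjusted p = 0.0474). It had 32 TPM against 3.75 TPM at 2 d, 96.3 TPM against 2.18 TPM at 4 d and 33.5 TPM at 0 h.

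Histone and ribosomal protein genes differed by day. Of 47 histone genes, 29 were 2-fold higher and 4 lower than the control at 2 d, and 0 were higher and 2 lower at 4 d. Of all genes, 21.0% were higher and 12.1% lower at 2 d, and 11.1% and 5.17% at 4 d. The histone gene Sobic.010G047100 had 356 TPM against 21.8 TPM at 2 d, 105 TPM against 59.8 TPM at 4 d and 737 TPM at 0 h, while the other treatments at 4 d had 293 TPM to 352 TPM. The zinc excess level at 4 d was thus above its control and below the 3 other treatments. The histone median was 1.42 at 2 d and 0.13 at 4 d against the control, the latter turning to -0.06 on rescaled columns, and 0.08 and -1.05 against the other treatments.

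Ribosomal protein genes had 157 of 321 members 2-fold higher and 7 lower at 2 d, and 16 higher and 3 lower at 4 d, where all genes went from 3466 to 1838 higher. Their median was 1.00 and 0.30 against the control, 0.38 and -0.45 against the other treatments, and -0.35 and -1.02 against the 0 h root. Markers of dividing cells summed to 706 TPM in zinc excess and 546 TPM in the control at 2 d, to 724 TPM and 645 TPM at 4 d, and to 1168 TPM at 0 h. The part of this difference in the histone and ribosomal results was not tested.

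**Figure D5:**
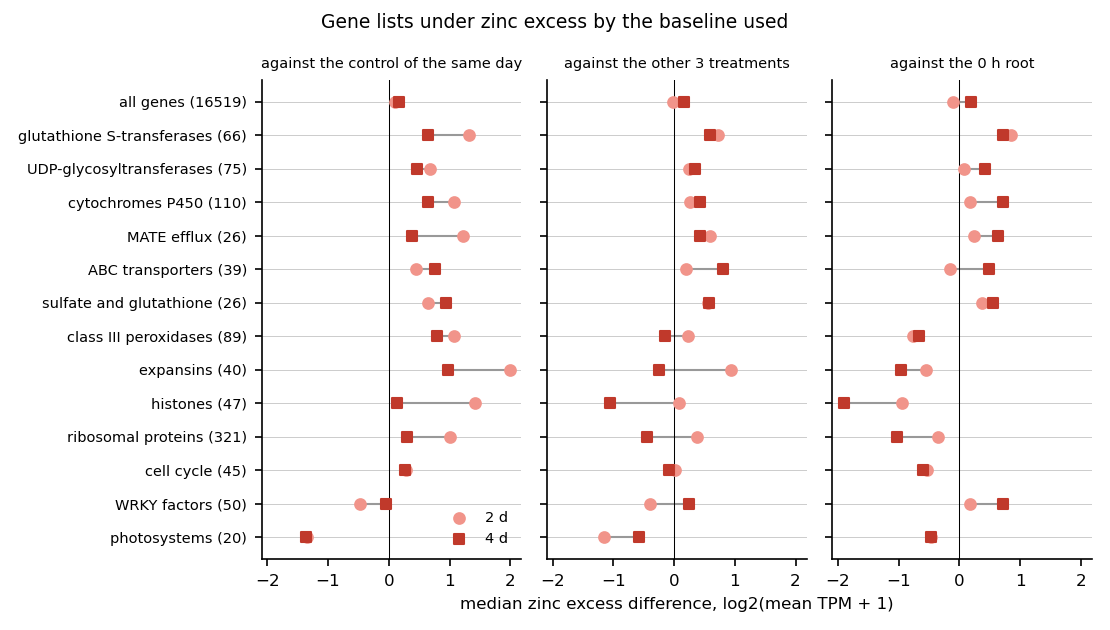
Median zinc excess difference of 13 gene lists and of all genes at 2 d (circles) and 4 d (squares), on log2(mean TPM + 1), against the control of the same day (left), the mean of the other 3 treatments (middle) and the 0 h root (right), with the number of genes in brackets. Glutathione S-transferases are above all genes in each panel, with 1.32 and 0.65, 0.72 and 0.59, and 0.85 and 0.72, whereas expansins, peroxidases, histones and ribosomal proteins are above the control and below the 0 h root. On rescaled columns the median of all genes against the control becomes -0.08 and -0.02, and that of histones at 4 d becomes -0.06.

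The deepest falls against the control were in genes that the controls had gained after 0 h. BAN-like Sobic.006G226400, related to the anthocyanidin reductase of tannin synthesis, had 0.906 TPM against 114 TPM at 2 d and 0.724 TPM against 94.6 TPM at 4 d. It had 2.22 TPM at 0 h. XTH1-like Sobic.010G098100, a xyloglucan endotransglucosylase of the wall, had 0.0647 TPM against 52.1 TPM at 2 d and 0.177 TPM against 51 TPM at 4 d, and was listed at 0 at 0 h. The branched-chain aminotransferase BCAT3-like Sobic.001G447500 had 0.0433 TPM against 34.4 TPM at 2 d and 0.420 TPM against 38 TPM at 4 d. It had 0.289 TPM at 0 h. In iron limitation at 2 d these 3 genes were at 90.1 TPM, 11.3 TPM and 25.2 TPM, and in the other treatments at 2 d at 2.08 TPM or less.

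The early effects against the control were -5.85 ± 1.25 (adjusted p = 0.0106) for Sobic.006G226400, -5.55 ± 1.01 (adjusted p = 0.00544) for Sobic.010G098100 and -4.93 ± 1.02 (adjusted p = 0.00932) for Sobic.001G447500, and none passed against the other treatments (adjusted p = 0.634, 0.657 and 0.602). Further genes of this kind were the homeobox factor HB7-like Sobic.006G163900, with 0.303 TPM against 63.8 TPM at 2 d and 2.90 TPM against 61.6 TPM at 4 d, and the alanine:glyoxylate aminotransferase AGT-like Sobic.007G213700, with 3.96 TPM against 175 TPM and 6.58 TPM against 147 TPM. At 0 h they were at 0.659 TPM and 5.54 TPM, so that HB7-like was above its 0 h level in zinc excess at 4 d, by 1.23 on the log2 scale. The isocitrate lyase ICL-like Sobic.002G324000 and the pyruvate orthophosphate dikinase PPDK-like Sobic.001G326900 fell with adjusted p of 0.0456 and 0.0423, with 0.286 TPM against 58.7 TPM and 18.4 TPM against 1185 TPM at 2 d. The first call was lost without 4 d (0.0758).

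Falls against the other treatments as well were fewer. The metacaspase AMC1-like Sobic.001G351400 had 0.765 TPM against 40.9 TPM at 2 d and 0.225 TPM against 42.4 TPM at 4 d, with 6.42 TPM at 0 h, and its effect was -4.86 ± 0.82 against the control (adjusted p = 0.00446), but it missed the other contrast (adjusted p = 0.229). Zinc limitation at 2 d was as low, at 0.813 TPM, and iron limitation at 2 d was at 46.9 TPM. BZO1-like Sobic.001G518800, an acyl-activating enzyme, had 1.83 TPM against 18.6 TPM at 2 d and 4.92 TPM against 35.7 TPM at 4 d, with 0.380 TPM at 0 h and 14.2 TPM to 92.6 TPM in the other treatments. It fell in both contrasts (adjusted p = 0.0276 and 0.0378). Both calls were lost without 2 d (0.363 and 0.52) and without 4 d (0.115 and 0.133). The homeodomain-like factor Sobic.003G365600 had 7.18 TPM against 65.3 TPM at 2 d and 8.81 TPM against 53.6 TPM at 4 d (adjusted p = 0.00556 and 0.0217), and its second call was lost without 4 d (0.0682).

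For Sobic.001G518800 and Sobic.003G365600 the 0 h root lay below zinc excess, so the other columns had gained more than zinc excess had. The aspartyl protease Sobic.006G160500 was lower than its control, the other treatments and the 0 h root alike, with 0.923 TPM against 6.37 TPM at 2 d, 1.46 TPM against 9.26 TPM at 4 d and 5.45 TPM at 0 h (adjusted p = 0.00854 and 0.00283). Among transcription factors, of 50 WRKY genes 4 were higher and 6 lower at both days, of 38 NAC genes 2 and 6, and of 46 ERF genes 1 and 4. The higher shares of 8%, 5.26% and 2.17% stood beside 7.80% of all genes, and the lower shares of 12%, 15.8% and 8.7% beside 3.93%. On rescaled columns 2 WRKY genes were higher, where 904 of all 16519 genes were.

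Photosystem and light harvesting genes were lower in zinc excess than in the control. Of 20 genes above 5 TPM, 0 were 2-fold higher and 12 lower at both days, 60% against 3.93% of all genes. In the early fit against the control 10 of the 20 fell, where 3.15% of all genes did. limma called 0 against the other treatments, where 8 were lower at an unadjusted p under 0.05. PSBX-like Sobic.003G055300, a small photosystem subunit, had 1.80 TPM against 48.2 TPM at 2 d and 2.17 TPM against 33 TPM at 4 d, with 4.54 TPM at 0 h. PSAK-like Sobic.002G033900 had 0.0657 TPM against 13.6 TPM at 2 d and was listed at 0 against 10.2 TPM at 4 d, with 0.381 TPM at 0 h and 19.3 TPM in iron limitation at 2 d. The green leaf marker sum moved with them, at 1932 TPM and 1614 TPM in the controls and 2977 TPM in iron limitation at 2 d against 632 TPM and 890 TPM in zinc excess. Its part in the result was not tested.

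Over the time course, the 2-fold counts against the control were 339 genes at 1 h, 5463 at 2 d, 2692 at 4 d, 814 at 7 d, 985 at 14 d and 2688 at 21 d. They cover the 16519 genes kept for at least 5 TPM in a zinc excess or control mean at 2 d or 4 d. Genes that reached 5 TPM only at other times are not counted, so the counts do not compare the times evenly. Of the 250 genes higher in zinc excess than in both control and other treatments at 2 d and 4 d, 26 were 2-fold above the control at 1 h, 121 at 7 d, 137 at 14 d and 99 at 21 d. Of the 70 lower genes, 6 were 2-fold below the control at 1 h, 13 at 7 d, 7 at 14 d and 7 at 21 d. The choice of these genes at 2 d and 4 d fixes those days but not 1 h, 14 d and 21 d. The 3 plant numbers of zinc excess at 2 d are also in the labels of the 7 d zinc excess root. The 7 d counts are therefore not independent of the choice. Of all 16519 genes, 1.16% were 2-fold higher at 1 h, 3.55% at 7 d, 4.01% at 14 d and 5.81% at 21 d. The shares 2-fold lower were 0.890%, 1.37%, 1.95% and 10.5%.

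GSTU25-like Sobic.002G361100 had 103 TPM in zinc excess and 2.69 TPM in the control at 7 d, 1704 TPM and 7.68 TPM at 14 d, and 120 TPM and 5.21 TPM at 21 d. Its zinc excess level at 1 h was 6.28 TPM against 2.24 TPM. NAS4-like Sobic.001G395900 instead had 1394 TPM in zinc excess and 1970 TPM in the control at 1 h. It had 822 TPM against 532 TPM at 7 d, 1319 TPM against 946 TPM at 14 d and 253 TPM against 344 TPM at 21 d. ZIP5-like Sobic.007G064900 had 2.75 TPM against 14.4 TPM at 7 d, 170 TPM against 23.9 TPM at 14 d and 1.90 TPM against 52.2 TPM at 21 d. The glutathione S-transferase was thus high at every later time, whereas the transporter was high in zinc excess at 14 d alone.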

How the data were processed

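RNA-seq libraries of sorghum root were made from poly-A RNA, and DRAGEN is the tool named for the reads, per the submitters' processing notes. The release of DRAGEN, the annotation and the assembly behind the values were not given in the sources used here. Means of TPM were computed by the authors, who deposited 1 table of mean TPM per tissue, time and solution, with 31 root columns. For 8 columns, the control and zinc excess at 4 d among them, the deposited values are recorded as a signal, because their column sums were the furthest above 1000000 with the 795 repeated rows included; root sums were 1013555.6 to 1022381.9. Repeats held identical values, and after their removal 34129 genes remained with sums of 1000000. The control and zinc excess columns at 4 d thus hold mean TPM, the same unit as the other columns, and were used as such. TPM means hold no counts, so the depth is unknown and no interval can be given.

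Differences were computed on log2(mean TPM + 1), with Python 3.11.15, numpy 2.4.6 and pandas 2.3.3. limma 3.58.1 (R 4.3.3) with a mean-variance trend was fitted to log2(mean TPM + 1) of 25 root columns with terms for time and for solution within the early (2 d and 4 d) and later days, 12 residual degrees of freedom and Benjamini-Hochberg adjustment at 0.05. Its p-values measure the spread between sampling times, not between plants. The code was run on simulated data with independent noise per gene and no shift shared by a whole column. That run cannot tell how the fit behaves where a column is shifted as a whole. Both contrasts use the same zinc excess columns.

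Genes named in the text were taken by rule from those with an Arabidopsis description and at least 5 TPM: the 10 largest rises and falls by the smaller of the 2 d and 4 d differences, the 10 largest called each way, the 8 largest each way from both control and other treatments, up to 4 members each way of every gene list, and all members of the zinc, chelation and iron regulator lists. The members, the 37 gene lists and the 5 cell marker lists were chosen with earlier results of these data known. Lists were matched by Arabidopsis symbol or description, so some hold unrelated genes. Alternatives were the fold, the TPM minimum, the pseudocount (0.1 or 5), rescaled columns, other baselines and columns left out.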

Additional observations from a re-analysis of the deposited data

Results flagged for a closer look

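The effect of zinc excess differed between the early days (2 d and 4 d) and the later ones (7 d, 14 d and 21 d) for 12 genes that were relatively higher later and 228 that were relatively lower, by the limma contrast of the late and early effects at an adjusted p under 0.05. Among the genes named by rule, the late minus early effect was -4.59 for the germin-like Sobic.003G427700, -4.13 for the lipid transfer protein Sobic.001G059700, -4.01 for the lipid transfer protein Sobic.002G050400, -2.81 for the proline-rich protein Sobic.002G365550 and 5.70 for XTH1-like Sobic.010G098100. The early controls of these genes were far from the 0 h root, with 0.346 TPM and 1.86 TPM against 46.2 TPM at 0 h for Sobic.003G427700, and that part of the contrast was not tested. Zinc excess at 2 d and at 7 d share plant numbers in the labels, so the early and later zinc excess columns are not fully independent. The counts depended on the settings given under the processing alternatives.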

How the results depend on the processing

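No paired analysis was possible because the table holds 1 mean per group and no replicate columns to leave out. The spread behind each p is between sampling times, TPM means give no depth, and most calls were lost without the 2 d columns. All settings were chosen with earlier results known, and the fit without the 2 d iron limitation column was added after seeing the data.

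The 2-fold counts, as higher and lower at 2 d, then 4 d, then both days, were 5341, 3797, 4036, 1877, 2876 and 1418 at a fold of 1.5, and 996, 547, 313, 206, 196 and 157 at a fold of 4. A pseudocount of 5 gave 2259 higher at 2 d, 962 at 4 d and 626 at both, and 431 lower at both. Against the 0 h root there were 1018 higher and 785 lower at 2 d, 1452 lower at 4 d and 833 higher at both. Against the mean of the other 3 treatments there were 1237 and 966 at 2 d, 863 and 419 at 4 d, and 323 and 97 at both. The TPM minimum and rescaling kept all 6 counts within 1.5 times, but rescaling evened out the higher and lower counts. They became 2792 and 2657 at 2 d, 1312 and 1209 at 4 d, and 904 and 920 at both.

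Early zinc excess against the control (2105 higher, 646 lower) became 13 and 2 with the 2 d and 4 d columns alone, 32 and 11 without 2 d, 268 and 68 with 7 d taken as early, and 201 and 29 with the other 3 treatments as control. The lower count was 420 with no filter, 1880 on rescaled columns and 971 without the 2 d iron limitation column. Against the other treatments (201 and 29), the counts were 107 and 14 at a mean of at least 5 TPM, 44 and 11 with the 2 d and 4 d columns alone, 92 and 15 without iron excess, 2 and 2 without 2 d, 407 higher with 7 d as early, 112 and 11 without the 2 d iron limitation column, 78 and 7 against iron excess alone, 119 and 9 against iron limitation alone and 20 and 1 against zinc limitation alone. The lower count was 15 with a pseudocount of 5 and 10 with no filter.

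The late minus early contrast (12 and 228) became 45 and 689 with a pseudocount of 0.1, 2 and 17 with 5, 31 and 365 at a mean of at least 5 TPM, 1 and 3 on rescaled columns, 280 and 1561 without 4 d, and 391 and 1836 without the 2 d iron limitation column. It was 8 lower with no filter, 35 higher without iron excess at 7 d and 6 higher with a robust prior. limma called 0 and 0 without iron excess, without 2 d and with 7 d as early, where 5399, 2335 and 3744 genes had an unadjusted p under 0.05. No named gene called in the main settings changed its sign in a refit of the same contrast that held the gene. At a mean of at least 5 TPM, not all named genes were in the fit. A change of baseline could change the sign: the histone gene Sobic.002G210500 was at 2.144 against the control and -0.146 against the other treatments. Of 173 named genes called against the control, 163 missed the threshold without 2 d and 42 without 4 d. Why these counts moved was not tested.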

Other observations

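In the plot of the 2 d against the 4 d differences, a row of points lay near 0 at 4 d and far below 0 at 2 d. Looked at after the values were seen, 56 genes had at least 5 TPM in the 2 d control and under 1 TPM in zinc excess at both days, in the 4 d control and in the 0 h root. Of these, 51 had no Arabidopsis description (91.1%, against 17.7% of the 16519 genes). In iron excess at 2 d 44 of them had at least 1 TPM, and in iron limitation and zinc limitation at 2 d none had. They make up 2.8% of the 1997 genes that were 2-fold lower in zinc excess at 2 d.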
